A study of Rattus norvegicus with 10 samples.

Results

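Messenger RNA of the whey protein genes Wap and Glycam1 and of the surface protein gene Cd24 was followed in milk whey of lactating rats. These are 3 of 35469 gene names on the array, and every non-control probe that carries one of them was taken, which came to 4 of 41012 probes, with 1 probe for Wap, 1 for Glycam1 and 2 for Cd24. The genes were selected on the measured difference in signal between whey and serum, as the transcripts other than caseins with the largest excess in whey, so that excess is described here without a test, while the days of lactation played no part in the choice. Dams of the inbred strain F344/N were milked on d 2, d 9 and d 16 postpartum, with the same 3 dams on each day, and each whey sample had its own 1-colour array. Serum of these dams was taken on d 21, after the last milking, and its RNA was pooled for a single array, which leaves serum without a replicate. No group was treated or carried a transgene. Before milking the dams were kept apart from their litters, injected with oxytocin and anaesthetised. Fat, cells and casein were spun out of the milk and the whey was filtered, so the RNA measured is that left in the fluid.

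Wap encodes whey acidic protein, a small secreted protein built of four-disulfide core domains and a main whey protein of rodents. Glycam1 encodes a mucin-like glycoprotein that is known in lymph node vessels and, in milk, as a whey and fat globule membrane protein, also called lactophorin. Cd24 encodes a short, heavily glycosylated protein held in the outer membrane by a glycosylphosphatidylinositol (GPI) anchor, found on epithelial cells, B cells and neutrophils and widely used to sort mammary epithelial cells. Milk protein genes of the secretory epithelium are switched on by prolactin, through the transcription factor STAT5, together with glucocorticoids.

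The probes are 60 bases long and lie, in the array's annotation on genome build rn4, at chr14:87392578-87392637 on the minus strand for Wap and at chr7:142455707-142455766 on the minus strand for Glycam1. Both Cd24 probes lie on the plus strand of chromosome 20, at chr20:47507359-47507419 and chr20:47507471-47507530, with 51 bases between them. The first of these intervals spans 61 positions in the annotation, although its probe has 60 bases. They are called the 5′ and the 3′ probe here by their order along the transcript. Exon and UTR annotation of that build was not used here. All 3 reading frames of the Wap and Glycam1 probes held a stop codon, and 2 of 3 did so in each Cd24 probe. The last 30 bases of each probe (bases 31 to 60) are shown because they are part of the sequence that captured the signal, with the polyadenylation signal AATAAA, which only the Wap probe of these 4 held, in capitals.
Wap probe: taactgctgctAATAAAaatccatttggct
Glycam1 probe: cacgctaggtggcgccttcatcacccacat
Cd24 5′ probe: ggatctaatacggtcacagtagtcttgata
Cd24 3′ probe: gaatgaacactccccttgcctcatacccga
The signal began at base 42 of the Wap probe, and 4.26% of the 41012 probes held these letters. The GC content was 36.7% for the Wap probe, 53.3% for the Glycam1 probe, 45.0% for the Cd24 5′ probe and 53.3% for the Cd24 3′ probe. Signals of different probes are therefore not set against each other as levels here, and between probes only the change of a ratio from array to array is used.

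All 10 arrays received labelled cRNA from equal amounts of RNA, so a value is relative to the RNA of the sample and not to a volume of milk. The whey arrays differed in overall brightness. Their 75th percentile of the processed signal, an intensity from which local background had been subtracted, ran from 12.5 to 83.2, a 6.65-fold range, with the highest value on the d 9 array of dam 3, while the spike-in control probes differed by 1.48-fold over all 10 arrays. The d 2 arrays of dams 1 and 2 lay on the first slide, the third d 2 array and all d 9 arrays on the second, and the d 16 arrays and serum on the last, which was scanned on a later day, so for d 16 whey the slide and the day cannot be told apart. No non-control spot was flagged as saturated. The highest non-control signal differed by only 1.31-fold over the 10 arrays, while the summed signal of the whey arrays differed by 5.08-fold. Whether the brightest signals, those of Wap and Glycam1 among them, were compressed was not tested. Luminal epithelial markers (Krt8, Krt18, Krt19, Epcam, Elf5, Cdh1, Cldn3 and Cldn7) were well above background on all 9 whey arrays, as 8 of 8 genes, and 3 of 8 were so in serum.

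The probe for Wap gave processed signals of 131011, 156790 and 225233 on d 2 in dams 1, 2 and 3, of 278785, 389679 and 386432 on d 9, and of 326077, 408230 and 416063 on d 16. All d 9 and d 16 values lay above all d 2 values, and those of d 9 and d 16 overlapped. The mean signal was 171011 ± 48694 on d 2, 351632 ± 63108 on d 9 and 383457 ± 49846 on d 16 (SD, n = 3 on each day). The signal was higher on d 9 than on d 2, and higher on d 16 than on d 9, in 3 of 3 dams each time. These signals are not scaled for array brightness. From d 2 to d 9 the mean log2 signal of Wap changed by 1.06, beside a median of 1.23 over the 16849 probes detected in whey. The changes were 1.19 beside 0.70 from d 2 to d 16, and 0.13 beside -0.53 from d 9 to d 16. As a share of all non-control signal of its array, Wap made up 1.44, 1.15 and 1.27% on d 2, 2.03, 1.50 and 0.835% on d 9 and 2.33, 1.64 and 1.96% on d 16. The lowest share was that of the brightest array, d 9 of dam 3, and the d 9 shares overlapped those of both other days. Every d 16 share lay above every d 2 share, and d 16 was highest in 3 of 3 dams. A two-sided exact permutation test over the 3 days and all 9 arrays gave p = 0.179 (0.290 adjusted over the 4 probes), and one that permuted the days within each dam, added after the data were seen, gave 0.167.

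The probe for Glycam1 gave processed signals of 277226, 344318 and 398625 on d 2, of 290410, 406969 and 405844 on d 9 and of 200917, 358262 and 340155 on d 16, in dams 1, 2 and 3. Dam 1 had the lowest signal on every day, and the ranges of the 3 days overlapped. The means were 340056 ± 60812, 367741 ± 66973 and 299778 ± 86093 in the order of the days (SD, n = 3). Its share of the signal was 3.04, 2.54 and 2.24% on d 2, 2.11, 1.57 and 0.877% on d 9 and 1.44, 1.44 and 1.61% on d 16. Every d 2 share lay above every share of the later days, with an exact permutation p of 0.0536 over the 3 days (0.214 adjusted over the 4 probes) and of 0.111 within dams. Within d 2 and within d 9 the share was lower the brighter the array, which did not hold within d 16. The part of array brightness in the difference between days was not tested.

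The Cd24 3′ probe read 15306, 28914 and 49281 on d 2, 29108, 78665 and 137852 on d 9 and 30401, 67290 and 52350 on d 16. The 5′ probe read 4916, 8922 and 14925 on d 2, 9287, 24642 and 42519 on d 9 and 10563, 23890 and 19478 on d 16. Both probes put the arrays of each day in the same order, with dam 1 lowest throughout and d 9 of dam 3 highest of all 9, and neither separated any pair of days. These signals followed the overall brightness of the arrays. As shares of the signal they were steadier, at 0.168 to 0.303% for the 3′ probe and 0.0539 to 0.0960% for the 5′ probe over the 9 whey arrays, with exact permutation p values over the days of 0.400 and 0.218 (adjusted over the 4 probes, 0.400 and 0.290). The 5′ share was lowest on d 2 and highest on d 16 in 3 of 3 dams, and its exact permutation p within dams was 0.0278, the smallest that 216 arrangements can give, or 0.111 adjusted over the 4 probes. The 3′ share did not run in 1 order in the 3 dams, with 0.167. Together the 4 probes took up 2.10 to 4.70% of all signal in whey and 0.00720% in serum.

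**Figure D1:**
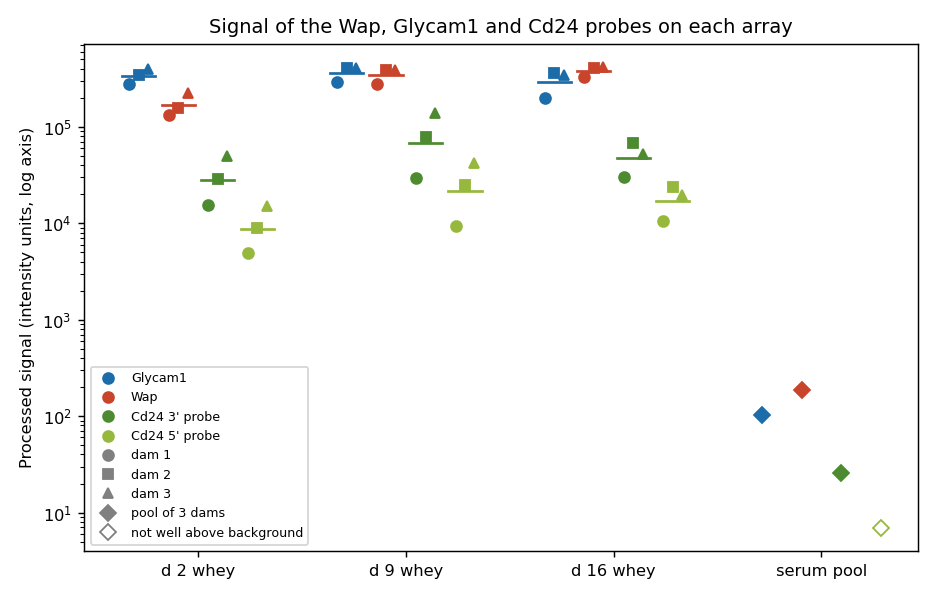
Processed signal (intensity units, log axis) of the 4 probes on each of the 10 arrays, with 1 symbol per dam, a bar for the geometric mean of the 3 arrays of a day, diamonds for the serum pool and an open diamond for a spot not well above background. The Wap signal on d 2 lay between 131011 and 225233, below all its d 9 and d 16 values, while the Glycam1 values of the 3 days overlapped and all serum signals lay at 185 or below. The signals are not scaled for the brightness of the arrays.

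On the serum array the processed signals were 185 for Wap, 102 for Glycam1, 25.8 for the Cd24 3′ probe and 6.94 for the 5′ probe, and the last was not well above background. The mean whey signal was 1629 times the serum signal for Wap, 3304 times for Glycam1 and 2108 times for the Cd24 3′ probe, and over single whey arrays these folds ran from 707 to 2244, from 1977 to 4004 and from 594 to 5347. These are the values that chose the genes. After quantile normalisation, which gives every array the same distribution of values, the log2 signal was 18.14 ± 0.36 for Wap, 18.33 ± 0.33 for Glycam1 and 15.20 ± 0.24 for the Cd24 3′ probe in whey (SD, n = 9) and 10.76, 10.02 and 8.05 in serum. The log2 differences were then 7.38, 8.32 and 7.15, smaller than on the signal scale, where they were 10.56, 11.66 and 10.77, since the serum array was dimmer as a whole. The Cd24 5′ probe averaged 13.52 ± 0.17 in whey and was at least 229-fold higher there than in serum on this scale. Its bound moved with the processing. It was lower with normexp background correction (92.5-fold), on the mean spot signal (90.9-fold) and after cyclic loess (81.9-fold). It was higher on the 75th percentile scale (297-fold), on the spike-in scale (2088-fold) and without normalisation (2114-fold).

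Of 3489 probes that had a gene symbol and stood well above background everywhere, serum included, Glycam1 had the largest difference, Wap the third and the Cd24 3′ probe the fifth. The probes around them were for casein genes and milk synthesis genes, with log2 differences of 7.69 for the κ-casein gene Csn3, 7.34 for Csn1s1, 7.05 for the α-lactalbumin gene Lalba, 6.93 for Csn1s2a, 6.31 for Csn2, 6.15 for the fatty acid synthase gene Fasn and 5.85 for Csn1s2b. Cd24, at 7.15, was thus the last gene inside the set and Lalba, at 7.05, the first outside it, with caseins left out. Without the requirement on serum, over 13568 named probes well above background on at least 1 array, Glycam1 was number 13, the Cd24 5′ probe number 23, Wap number 46 and the Cd24 3′ probe number 65. More than 4-fold higher in whey were 408 of 4643 probes well above background on all arrays (8.79%), with or without a symbol, and nothing is read from the members' place among them, which the rule fixed. Red cell genes were bright in serum. The 6 erythroid genes on the array, Hbb among them, summed to a processed signal of 246885 there and to 47.3 to 539 on the whey arrays, and 5 platelet genes summed to 23137 in serum and to at most 122 in whey. Whether these genes bear on the serum values of Wap, Glycam1 and Cd24 was not tested.

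**Figure D2:**
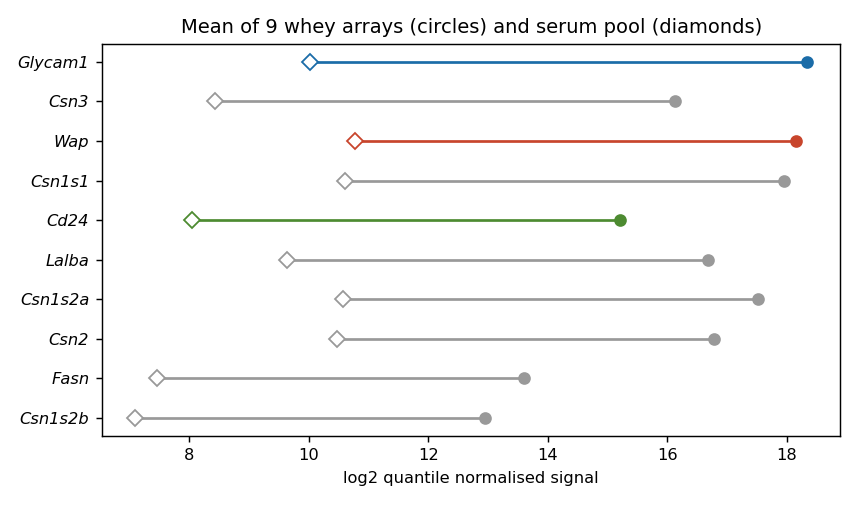
Mean log2 quantile normalised signal of the 9 whey arrays (circles) and of the serum array (open diamonds) for the 10 probes with a gene symbol, well above background on all arrays, that had the largest difference, in its order from top to bottom. Glycam1, Wap and the Cd24 3′ probe, in colour, stood among casein genes, Lalba and Fasn, with differences of 8.32, 7.38 and 7.15.

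The change from day to day was tested with limma on the quantile normalised values of the 9 whey arrays. Between d 2 and d 16 the test called 1 of the 4 probes, that for Wap, beside 28.5% of the 16849 probes tested in either direction and 16.0% in the upward direction. Wap rose by 0.73 on the log2 scale (SE 0.17, 95% confidence interval 0.34 to 1.12, adjusted p = 0.0164 by limma), or 1.66-fold. Its normalised log2 value was 17.77 on each of the d 2 arrays, 17.77, 18.36 and 18.36 on d 9 in dams 1 to 3, and 18.50 on each of the d 16 arrays. Wap was thus the 1 probe of the 4 whose values on d 2 and d 16 did not overlap, beside 48.2% of all tested probes. Between d 2 and d 9 this held for 0 of the 4, beside 38.8%, and between d 9 and d 16 for 2, Wap, whose processed signals of these days did overlap, and Glycam1, beside 29.3%. Quantile normalisation sets every value by rank alone, because it replaces a signal by the mean of the signals that hold the same rank on the arrays. For signals this high a step of a few ranks was large, with 17.77 at rank 6 and 18.50 at rank 3. Wap held rank 6 on all d 2 arrays, ranks 6, 4 and 4 on d 9 and rank 3 on all d 16 arrays, so its spread within d 2 and within d 16 was 0 on this scale while its processed signals differed. The call was lost when the arrays were scaled to their 75th percentile instead (log2 change 0.50, limma adjusted p = 0.343), by cyclic loess (0.68, 0.192), to the spike-in probes (1.08, 0.447) or not at all (1.19, 0.375). Without d 16 of dam 3 it had a limma adjusted p of 0.0548. The change was upward under every alternative tried, with 0.50 as the smallest and 1.19 as the largest log2 change.

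Between d 2 and d 9 limma called 0 of the 4 probes, beside 17.6% of all probes tested, and 1 had an unadjusted p under 0.05. That probe was Wap, which was 0.39 higher on d 9 (log2, SE 0.17, adjusted p = 0.142 by limma). The adjusted p was 0.0195 without d 9 of dam 1, the d 9 array on which Wap still held rank 6. On the second slide alone the single d 2 array, of dam 3, and the 3 d 9 arrays differed by the same 0.39 for Wap. That value could not differ, because Wap had 1 normalised value on every d 2 array. On the processed signal the log2 difference was 0.63 on this slide and 1.06 over all arrays of the 2 days. The median of all tested probes was 1.23 over those arrays on that scale. From d 9 to d 16 limma again called 0 of 4, beside 1.42% of all probes, and 1 had an unadjusted p under 0.05. This was Glycam1, whose log2 change was -0.55 (SE 0.20, adjusted p = 0.199 by limma). The Tukey-Kramer test of the study's methods, adjusted over all probes, called none of the 4 between any 2 days.

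Glycam1 had normalised log2 values of 18.36, 18.36 and 18.65 on d 2, of 18.50, 18.65 and 18.50 on d 9 and of 17.59, 18.36 and 18.04 on d 16. Its d 16 values lay below all d 9 values, and they met those of d 2 at 18.36. Between d 2 and d 16 it changed by -0.46 (log2, SE 0.20, 95% confidence interval -0.92 to 0.00, limma adjusted p = 0.124), and the value was lower on d 16 in dams 1 and 3 and the same in dam 2. With normexp background correction in place of the software's subtraction the change was -0.52 with a limma adjusted p of 0.0234, and from d 9 to d 16 it was -0.60 with 0.0471. Its direction from d 2 to d 9 depended on the scaling, with 0.09 after quantile normalisation (limma adjusted p = 0.772), -1.02 on the 75th percentile scale (0.0846) and -0.91 after cyclic loess (0.104).

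Neither Cd24 probe was called between any 2 days. The 3′ probe had normalised log2 values of 14.85, 15.10 and 15.46 on d 2, 15.02, 15.46 and 15.54 on d 9 and 15.04, 15.18 and 15.19 on d 16. The 5′ probe read 13.22, 13.36 and 13.65 on d 2, 13.35, 13.62 and 13.55 on d 9 and 13.51, 13.70 and 13.72 on d 16. Each day's values overlapped those of the others for both probes. The 95% confidence interval of the log2 change to d 16 from d 2 ran from -0.46 to 0.46 for the 3′ probe and from -0.11 to 0.58 for the 5′ probe. On the spike-in scale the Cd24 probes were 1.57 and 1.59 higher (log2) on d 9 than on d 2, but the median of all tested probes was 1.52 higher on that scale too. A change in the source of whey RNA and a change of a transcript within its source cannot be told apart in these samples.

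**Figure D3:**
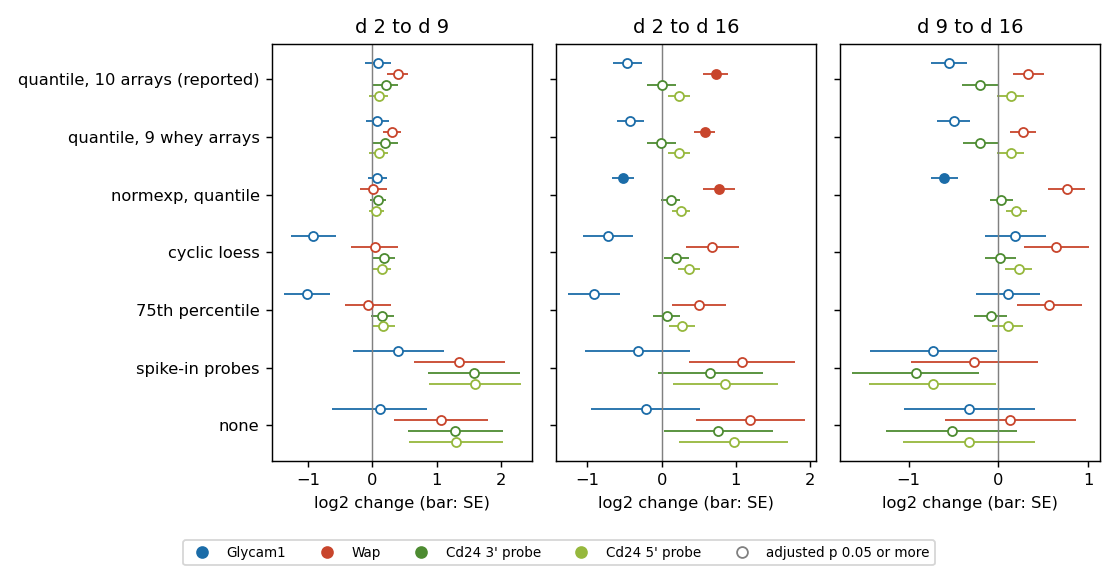
Log2 change of each probe between days (points; bars, SE) under 7 ways of scaling the arrays, with filled points for a limma adjusted p under 0.05. The Wap change from d 2 to d 16 was upward in all 7 and called in 3, those with quantile normalisation. Glycam1 changed direction from d 2 to d 9 with the scaling, and the bars were widest without normalisation or on the spike-in scale, where array brightness stays in the values.

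A ratio of 2 probes on the same array does not depend on the scaling of the array by a factor. The ratio of the Wap signal to the Glycam1 signal, and 3 further ratios among the probes, were picked after their values had been seen and are described without a test. On the log2 scale it was -1.08, -1.13 and -0.82 on d 2, -0.06, -0.06 and -0.07 on d 9 and 0.70, 0.19 and 0.29 on d 16, in dams 1, 2 and 3. The days did not overlap, and the ratio was higher on d 9 than on d 2 and on d 16 than on d 9 in 3 of 3 dams. In linear terms it went from 0.455 to 0.565 on d 2 to 0.952 to 0.960 on d 9 and to 1.14 to 1.62 on d 16. The mean log2 ratio was 1.41 higher on d 16 than on d 2, which is 2.65-fold (-1.01 ± 0.17 to 0.39 ± 0.27, SD, n = 3). On quantile normalised values, where rank sets both levels, it lay between -0.88 and -0.59 on d 2, between -0.73 and -0.14 on d 9 and between 0.14 and 0.91 on d 16, so that d 2 and d 9 overlapped and d 16 lay above both.

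On the second slide the d 2 array of dam 3 had a log2 ratio of -0.82 and the 3 d 9 arrays had ratios between -0.07 and -0.06. The d 16 arrays have no whey array of another day on their slide. From the mean spot signals, without background subtraction, the mean log2 ratio was 1.45 higher on d 16 than on d 2. On d 9 the ratio from these signals was -0.30, -0.34 and -0.34 in dams 1, 2 and 3, lower than from the processed signals. The mean log2 processed signal of Wap was 1.19 higher on d 16 than on d 2, and that of Glycam1 was 0.21 lower, but neither was called on that scale. There the median of all tested probes was 0.70 higher on d 16.

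The ratio of the Cd24 3′ probe to the 5′ probe was 3.11 to 3.30 on d 2 and 3.13 to 3.24 on d 9, and 2.69 to 2.88 on d 16. On the processed signal it was lower on d 16 in 3 of 3 dams, and d 16 did not overlap the earlier days. The mean fall on the log2 scale was 0.20 from d 2 and 0.19 from d 9. From the mean spot signals it was 0.16 lower on d 16 than on d 2, but d 9 and d 16 overlapped. There the log2 ratio was 1.40, 1.37 and 1.42 on d 9 and 1.44, 1.31 and 1.25 on d 16, in dams 1, 2 and 3. The d 16 arrays were also those of the last slide. The low-gain scan, which replaces the standard scan for bright spots, supplied the 3′ signal on 8 of 9 whey arrays and the 5′ signal on 3 of 9, and its part in this ratio was not tested. For Wap and Glycam1 it supplied the signal on all 9 whey arrays, so the ratio of these genes was not formed across 2 scans. The ratio of Wap to the Cd24 3′ probe was 4.57 to 8.56 on d 2, 2.80 to 9.58 on d 9 and 6.07 to 10.7 on d 16, and the ranges overlapped. It was higher on d 16 than on d 2, by a mean of 0.43 on the log2 scale, and than on d 9, by 0.65, in 3 of 3 dams each. On quantile normalised values the log2 ratio was 3.31 to 3.46 on d 16, above the 2.31 to 2.92 of d 2 and the 2.75 to 2.90 of d 9. Glycam1 was lower against the Cd24 3′ probe on d 9 and on d 16 than on d 2, in 3 of 3 dams each. The mean log2 ratio was 1.17 lower on d 9 and 0.98 lower on d 16, and 0.20 higher on d 16 than on d 9. The ratios were 8.09 to 18.1 on d 2, 2.94 to 9.98 on d 9 and 5.32 to 6.61 on d 16, so d 9 overlapped both other days. Within each day the ratios of Wap and of Glycam1 to the Cd24 3′ probe were lower on brighter arrays. On d 9 that of Glycam1 was 9.98, 5.17 and 2.94 in dams 1, 2 and 3, at 75th percentiles of 21.2, 41.8 and 83.2. The part of array brightness in the differences between days was not tested.

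**Figure D4:**
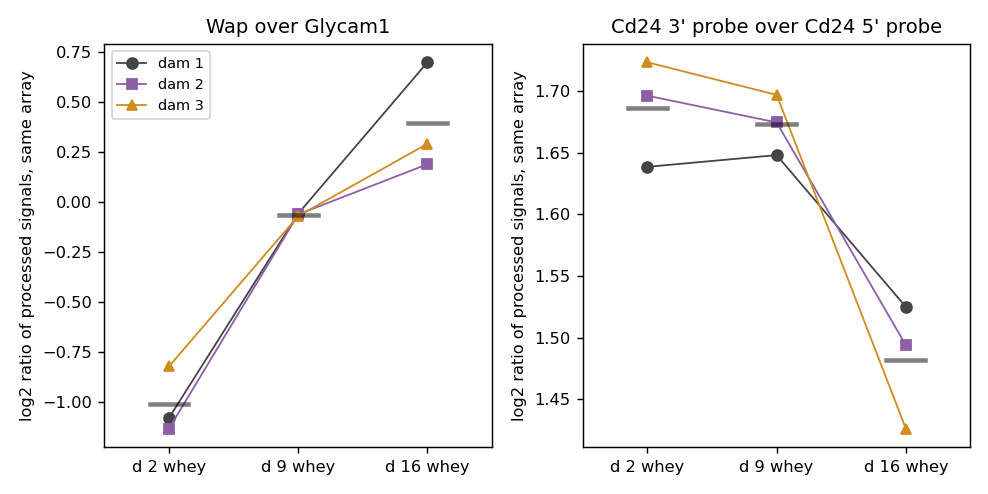
Log2 ratio of the processed signals of 2 probes on the same whey array, for Wap over Glycam1 on the left and the Cd24 3′ over the 5′ probe on the right, with 1 line per dam, grey bars for the mean of 3 arrays and a different scale in each panel. The left ratio went from a mean of -1.01 on d 2 to -0.06 on d 9 and 0.39 on d 16, and the right one was 1.69, 1.67 and 1.48.

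The other genes of milk protein synthesis and secretion give the setting for Wap and Glycam1. Of 19 such genes, 18 were on the array and 15 were tested, with 1 probe each. By d 16, 8 had risen against d 2 and 2 had fallen, with a median log2 change of 0.64 beside 0.04 over all tested probes, and these 10 calls among 15 probes stand beside 28.5% called over all probes. The largest rises were those of the casein gene Csn1s2b, by 6.53 (limma adjusted p = 2.30e-05), of Pigr, which encodes the receptor that carries IgA across epithelium, by 1.96 (0.00199), and of the transferrin gene Tf, by 1.19 (0.0183). Lalba rose by 1.07 (0.00764), Csn2 by 1.04 (0.00581) and Mfge8, a fat globule membrane protein gene, by 1.05 (0.00672). The mucin gene Muc1 fell by 1.04 (0.00797) and Olah, a thioesterase that ends fatty acid synthesis at medium chain length, fell by 0.78 (0.0301). On the same scale the changes were 0.73 for Wap, which was called, and -0.46 for Glycam1, which was not. These changes are per amount of RNA. By qPCR in equal volumes of whey, the paper reported no change over lactation for Wap, Csn2 and Pigr. It reported higher levels in colostrum for Lalba, Mfge8 and Muc1, a fall to d 9 and a rise to d 16 for Tf, and higher Csn1s2b on d 16. Between d 2 and d 9, 2 rose and 3 fell, beside 17.6% of all probes called (median 0.03, all probes 0.11). The largest fall was that of Tf, whose log2 change was -4.26 (limma adjusted p = 0.000492). From d 9 to d 16, 3 rose and 0 fell, beside 1.42% of all probes called, with a median of 0.45 beside -0.06. The 3 were Tf, by 5.44 (limma adjusted p = 0.00119), Csn1s2b, by 2.41 (0.00566), and Mfge8, by 1.24 (0.0319).

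Of 24 further genes for proteins with a four-disulfide core and their relatives, 11 were on the array, and 7 probes of 6 genes were tested. Of these, 4 probes rose and 0 fell from d 2 to d 16, beside 28.5% of all probes called in either direction and 16.0% upward, with a median of 1.23. Wfdc3 rose from 12.13 on d 2 to 14.11 on d 9 and 14.53 on d 16, by 2.40 in all (limma adjusted p = 0.000227), and by 1.98 from d 2 to d 9 (0.00103). Wfdc2 followed another course, with 6.05, 4.66 and 7.27, as it fell by 1.39 to d 9 (0.00764) and rose by 2.61 to d 16 (0.00566). Slpi, an inhibitor of leukocyte proteases, and Wfikkn1 were not well above background on any d 2 array, and were at least 3.92-fold and 2.24-fold higher on d 16 (limma adjusted p = 0.0351 and 0.0113). A second Slpi probe had a log2 change of 0.47 and was not called (0.801). The earlier interval, d 2 to d 9, had 1 rise and 1 fall, beside 17.6% of all probes called. The later one, d 9 to d 16, had 1 rise, beside 1.42%.

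**Figure D5:**
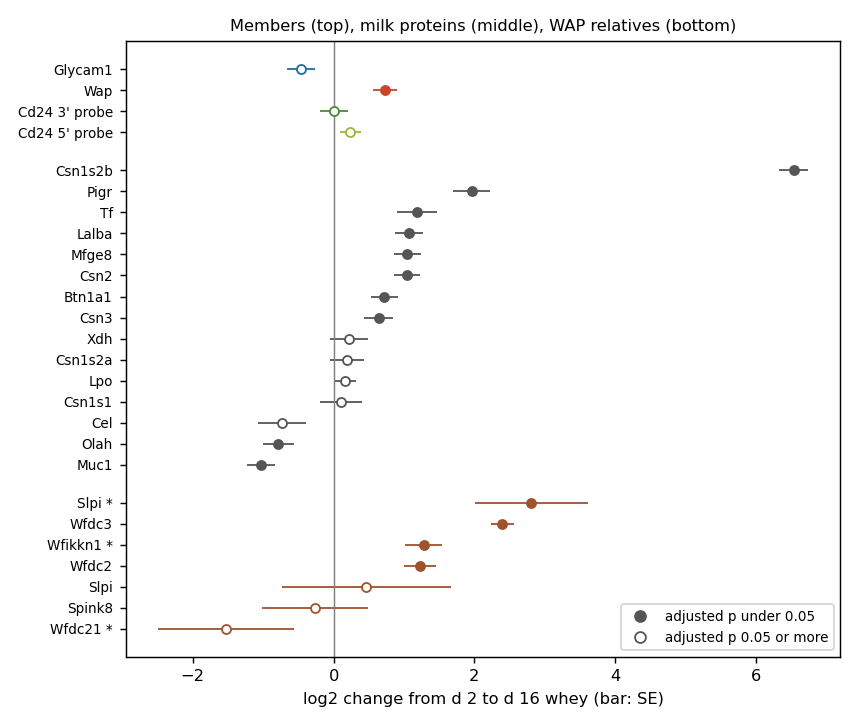
Log2 change from d 2 to d 16 whey (points; bars, SE; filled, limma adjusted p under 0.05) of the 4 probes, of 15 probes for other milk proteins and milk secretion genes, and of 7 probes for relatives of Wap. An asterisk marks probes not well above background on any array of a day, whose plotted value is the fitted change and not a bound. Wap, at 0.73, lay among rising milk protein genes, and Glycam1, at -0.46, on the other side of 0.

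For Glycam1, genes of mucin-like glycoproteins and of the making of their sugar chains were followed, of which 12 probes of 8 genes were tested. Over the whole interval, d 2 to d 16, 7 probes of 5 genes rose and 0 fell, again beside 28.5%, with a median of 0.94. B4galt1, which encodes a galactosyltransferase that also forms lactose with α-lactalbumin, rose by 1.77 and 1.58 on its 2 probes (limma adjusted p = 0.00276 and 0.00468). Galnt2, whose enzyme starts mucin-type chains, rose by 1.46 (0.00217), and C1galt1, whose enzyme extends them, by 1.31 (0.00131). From d 2 to d 9, 5 probes rose and 1 fell, beside 17.6% of all probes called. From d 9 to d 16, 2 rose, beside 1.42%. The 2 were Galnt2, by 1.15 (0.0416), and Podxl, by 2.07 (0.0176), which fell by 2.32 from d 2 to d 9 (0.00276). With the dam as a block 1 of them was called, and without 1 array at a time 0 to 2 were.

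For Cd24, genes that make and attach GPI anchors and genes of other GPI-anchored or CD24-binding proteins were followed. Of 27 anchor genes 23 were on the array, and 20 probes of 17 genes were tested. Of these, 7 probes rose and 2 fell from d 2 to d 16 (28.5% of all probes called), with a median of 0.40, from d 2 to d 9, 6 rose and 1 fell (17.6% of all probes, median 0.35), and from d 9 to d 16, 0 were called by limma in either direction. Pgap2, whose protein remodels the anchor, rose by 1.09 (0.00198), Pgap3 fell by 0.99 (0.0102) and Dpm1, a mannose donor synthase gene, fell by 0.60 (0.0110). Gpaa1 and Pigv were not well above background on any d 2 array and were at least 1.96-fold and 1.81-fold higher on d 16 (0.00560 and 0.00245). Of 29 genes for GPI-anchored or CD24-binding proteins 28 were on the array, and 15 probes of 11 genes were tested. Of these probes 2 rose and 4 fell from d 2 to d 16 (28.5% of all probes called, median -0.40). The folate receptor gene Folr1 rose by 1.40 (0.00336) and Cd59, a complement inhibitor gene, by 0.82 (0.0137). Cd59 was also the 1 probe called from d 9 to d 16, beside 1.42% of all probes, with a rise of 1.10 (0.0356). With the dam as a block this comparison called 0 of the 15 probes. Cd14, a lipopolysaccharide receptor gene, fell by 1.88 and 1.22 on its 2 probes (0.00951 and 0.00625), and the kinase gene Lyn by 0.94 and 0.87 (0.0131 and 0.0180). From d 2 to d 9, 5 probes fell and 0 rose (17.6% of all probes called). All p values of this paragraph are adjusted p values by limma.

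The counts of these gene lists moved with the processing. On the spike-in scale and without normalisation, limma called from d 2 to d 16 only 2 probes of the milk list, 2 of the Wap relatives, 2 of the mucin list and 0 of both Cd24 lists. By the Tukey-Kramer test the counts were 6, 2, 5, 7 and 2 in the order of the lists above, against 10, 4, 7, 9 and 6. Leaving out 1 whey array at a time gave 6 to 10, 3 to 4, 5 to 8, 7 to 10 and 4 to 7, with the lowest count of the milk list without d 16 of dam 1 or of dam 3. For the anchor genes the count from d 2 to d 9 was 3 to 5 without 1 array at a time, against 7, with 3 when d 2 of dam 3, d 9 of dam 1 or dam 2, or d 16 of dam 3 was left out.

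B cells and neutrophils also carry CD24. Among B cell genes, Cd79b and Cr2 were well above background on 0 of 9 whey arrays, Ms4a1 on 1 and Blnk on 6. Of 8 neutrophil genes, Csf3r, Elane and Mmp8 were well above background on 0 whey arrays, Camp and Ngp on 1 each, Mpo and S100a9 on 4 each and S100a8 on 7. Their processed signals, not scaled for array brightness, summed to 43.6 to 62.4, 27.0 to 370 and 48.7 to 757 in the order of the days. The 8 macrophage genes had sums of 67.0 to 115 on d 2, 473 to 645 on d 9 and 756 to 1173 on d 16. T cell genes summed to 47.6 to 71.6, 106 to 258 and 174 to 253, and endothelial genes to at most 61.5 on any whey array. The 8 luminal epithelial genes summed to 7220 to 21205, 8207 to 33238 and 7641 to 17004 on the processed signal, and after quantile normalisation to 13714 to 17646 on d 2, 6457 to 8828 on d 9 and 8389 to 9899 on d 16, highest on d 2. The part of these sources in the Wap, Glycam1 and Cd24 values was not tested.

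The genes whose normalised values were most like those of each probe over the 9 whey arrays were sought among 7266 probes with a symbol. For Wap these were Snn (Pearson r = 0.96), Ssbp3 (0.96), Myst3 (0.95), Sfrs12ip1 (0.95) and Pfdn1 (0.94), and for Glycam1 Rnf4 (0.96), RGD1559545 (0.94), Coq5 (0.94), Mrps12 (0.93) and RGD1311612 (0.93). On the 75th percentile scale the r of these 10 genes lay between -0.43 and 0.14, so this likeness came and went with the scaling. For the Cd24 3′ probe they were Zfp828 (0.96), Ccdc94 (0.95), Nampt (0.95), Nudt19 (0.94) and RGD1310414 (0.94), and for the 5′ probe Ammecr1l (0.96), Rabggta (0.96), Serf2 (0.94), Smox (0.92) and Mkl1 (0.92), with r of 0.83 to 0.95 on the other scale. The 9 arrays share dams, days and slides, and these values describe likeness alone.

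The promoter windows of Wap and Glycam1, whose ratio did not overlap between the days on the signal scale, are shown for reference as 250 bases before the transcript start, from RefSeq on assembly GRCr8, another build than that of the probes. They were searched on both strands for TTCNNNGAA, the core that STAT factors bind, for TATAAA and for CCAAT, and capitals mark the matches.
Wap, chr14:85719160-85719409, minus strand: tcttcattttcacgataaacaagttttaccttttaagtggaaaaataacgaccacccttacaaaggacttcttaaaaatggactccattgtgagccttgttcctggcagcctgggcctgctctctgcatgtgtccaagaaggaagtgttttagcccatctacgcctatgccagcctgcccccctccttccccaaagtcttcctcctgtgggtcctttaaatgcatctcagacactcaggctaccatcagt
Glycam1, chr7:136561300-136561549, minus strand: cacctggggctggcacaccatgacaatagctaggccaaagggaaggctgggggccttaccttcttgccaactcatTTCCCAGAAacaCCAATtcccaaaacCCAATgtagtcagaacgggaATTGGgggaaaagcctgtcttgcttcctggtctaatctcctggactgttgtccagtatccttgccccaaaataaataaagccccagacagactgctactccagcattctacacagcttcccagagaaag
The Glycam1 window held 1 match to TTCNNNGAA, 175 bases before the start, and 3 to CCAAT. The Wap and Cd24 windows held none of the 3 motifs. Of 27457 promoters of this length, 7.57% held TTCNNNGAA, 13.2% TATAAA and 34.2% CCAAT. The Cd24 window (chr20:48656227-48656476, plus strand) differed in base composition, with a GC content of 75.6%, above that of 96.9% of promoters, and 28 CpG pairs, against 47.2% and 3 pairs for Wap and 50.4% and 1 pair for Glycam1.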

How the data were processed

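Sample titles gave the day and the dam of each array. The authors amplified RNA into cyanine 3 cRNA, hybridized it to Agilent Whole Rat Genome arrays and read the spots with Agilent Feature Extraction 9.5.3.1. The deposited processed signal, mean spot signal and background are intensity values on a linear scale, and none was normalized between arrays. The first had local background subtracted and was corrected further, as some of its values exceed the mean spot signal. Bright spots came from a second scan at low gain. The deposited flags of 0 or 1 (other values) mark spots well above background, saturated or outlying. A deposited table of normalized values was not used, because its 10 sample columns match no label. The study's methods state quantile normalization.

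Here log2 processed signals of 43379 non-control spots were quantile normalized over 10 arrays, with outlier spots left out and spots of a probe averaged. With R 4.3.3, limma 3.58.1, data.table (version 1.17.8) and jsonlite 2.0.0, days were compared by limma on the whey arrays (9 in all), and p values were adjusted by Benjamini and Hochberg's method over 16849 probes, those well above background with a signal above 20 on at least 1 whey array and a threshold of 0.05. The test was checked on simulated data. Prior degrees of freedom were 1.83. Shares of the signal were compared with exact permutation tests, over all whey arrays and within dams. Within-array ratios, picked after their values were seen, have no test. For a probe not well above background on any array of the dimmer group, a fold is a bound. It was taken against the probe's own value or the dimmest signal still well above background, whichever was higher on each array, averaged over the arrays. The genes, gene lists and tests were chosen with earlier results of these data known. Named were all probes of the 3 genes, the 10 largest whey excesses, the 5 genes most like each probe and, per list, the 3 largest called changes each way from d 2 to d 16 with every probe called in another comparison where these were 3 or fewer; Lalba, Csn2, Mfge8 and the second probes of genes were added after their values were seen. Pairing of samples by dam number rests on the same 3 animals being milked each day. Deviations from the day means correlated between samples of the same dam with r of -0.02 to 0.22 (mean 0.10 over 9 pairs) and between different dams with a mean of -0.05 over 18 pairs. Gene symbols are those of the files, and RefSeq accessions of 84.1% of 19980 probes matched a GRCr8 table. The precision is limited by 3 arrays per day. The p-values set differences between days against the spread among these samples, and the main limma fit did not use the pairing by dam. One gene each of the B cell and the mucin list is not reported here, nor are values that need it.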

Additional observations from a re-analysis of the deposited data

How the results depend on the processing

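Each probe was refitted under alternative normalisations, background corrections, filters, tests and blocks and without each whey array in turn, as 22 or 23 alternatives per comparison. The Wap change from d 2 to d 16 kept its direction in 22 of 22 and its limma call in 16. Every alternative that kept the call used quantile normalised values, which rank sets, so these are not separate tests of it. The call was lost with every other scaling, namely the 75th percentile (0.50), the spike-in probes (1.08), no normalisation (1.19) and cyclic loess (0.68). It was also lost with the Tukey-Kramer test (0.73, adjusted p = 0.0551) and without d 16 of dam 3. Glycam1 was lower on d 16 than on d 2 in 22 of 22 and was called in 2, with normexp (-0.52, and -0.60 from d 9 to d 16) and with the mean spot signal (-0.52 and -0.60). Other changes, none of them called, turned direction. On the 75th percentile these were -0.067 for Wap and -1.02 for Glycam1 from d 2 to d 9, 0.070 for the Cd24 3′ probe from d 2 to d 16 and 0.11 for Glycam1 from d 9 to d 16. On the spike-in scale they were 0.65 for the Cd24 3′ probe from d 2 to d 16, and -0.27 for Wap and -0.73 for the Cd24 5′ probe from d 9 to d 16. Without normalisation they were 0.77 for the 3′ probe from d 2 to d 16 and -0.33 for the 5′ probe from d 9 to d 16. With cyclic loess they were -0.91 for Glycam1 from d 2 to d 9, 0.20 for the 3′ probe from d 2 to d 16, and 0.19 for Glycam1 and 0.022 for the 3′ probe from d 9 to d 16. The 3′ probe changed by 0.12 to d 16 from d 2 and by 0.035 from d 9 with normexp, and by 0.12 and 0.035 with the mean spot signal. With the slide as a block, possible from d 2 to d 9 alone, Glycam1 changed by -0.10, the 3′ probe by -0.12 and the 5′ probe by -0.14. The cause of these differences was not tested.

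The whey minus serum differences were 8.83, 7.93 and 8.21 for Glycam1, the Cd24 3′ and the 5′ probe on the 75th percentile. For Wap, Glycam1 and the 3′ and 5′ probes they were 10.55, 11.64, 10.75 and 11.03 on the spike-in scale, 10.56, 11.66, 10.77 and 11.05 without normalisation and 6.04, 7.14, 6.11 and 6.36 with cyclic loess. Values of the 5′ probe, not well above background in serum, are bounds. For Wap and the 3′ and 5′ probes they were 6.98, 6.30 and 6.53 with normexp and 7.02, 6.63 and 6.51 with the mean spot signal. Probes called from d 2 to d 9 numbered 7072 on the spike-in scale, 1298 without normalisation, 498 with the slide as a block, 1297 by Tukey-Kramer and 1602 in a fit of 6 arrays. From d 2 to d 16 they numbered 764, 796 and 2683 on the spike-in scale, without normalisation and by Tukey-Kramer. From d 9 to d 16 the counts were 159 (spike-in), 63 (no normalisation), 855 (normexp), 929 (mean spot signal), 131 (no filter), 618 (minimum signal of 100), 158 (6 arrays) and 0 (Tukey-Kramer, against 239 by limma). With the dam as a block (paired analysis) this last count was 117 probes, the Wap change from d 2 to d 16 kept its call (limma adjusted p = 0.0258), and no other call on the 4 probes changed. Of the gene lists, this block ended the single d 9 to d 16 call of the GPI-anchored and CD24-binding proteins (0 against 1) and took 1 of 2 from the mucin list.

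Without each whey array in turn, the Wap change from d 2 to d 16 could only stay at 0.73. Its normalised values were equal within d 2 and within d 16. The limma adjusted p of this change ran from 0.00362 to 0.0548. From d 2 to d 9 the Wap change ran from 0.29 to 0.59 (limma adjusted p 0.0195 to 0.343, called without d 9 of dam 1). The 3′ probe ran from -0.14 to 0.16 from d 2 to d 16. The counts of called probes were 1266 to 2718 between d 2 and d 9, 2744 to 4886 between d 2 and d 16, and 22 to 259 between d 9 and d 16. The ratio of Wap to Glycam1, added after the data were seen, was 1.19 to 1.51 higher (log2) on d 16 than on d 2 over 12 alternatives.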
